A study of Mus musculus with 2 samples.

Results

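The genes described here are 10 immediate early genes, Fos, Fosb, Jun, Junb, Egr1, Atf3, Ier2, Ier3, Nr4a1 and Dusp1, which were chosen by symbol and make up 10 of the 27998 genes in the count tables. They were measured by droplet single-cell RNA sequencing of mouse carotid arteries remodelled after wire injury, a model of intimal hyperplasia in which a guide wire is drawn through the vessel to remove the endothelium. The 2 groups were male C57BL/6J mice, 8 weeks of age, with vessels taken 14 days (2 weeks) or 28 days (4 weeks) after injury. Each group is 1 library of pooled animals (n = 18 in the design), and a cell cannot be traced to its animal. Both groups carried the injury and shared the same handling: perfusion with buffer, separation of the adventitial layer from the media and neointima, papain digestion of the minced vessel for 40 min at 37 °C with shaking, dye staining, and flow sorting of live nucleated cells. The labels disagree on the vessel, naming the carotid artery as the source but aortic grafts in the isolation protocol, and on the side, naming the left carotid artery in one place and the right in another. Uninjured vessels and vessels kept free of digestion were not analysed here.

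Immediate early genes are transcribed within minutes of a stimulus, without new protein synthesis, when kinases such as ERK, JNK and p38 activate factors already bound at their promoters. Fos, Fosb, Jun and Junb encode subunits of the AP-1 transcription factor, Egr1, Atf3 and Nr4a1 encode other transcription factors, Ier2 and Ier3 encode small regulators, and Dusp1 encodes a phosphatase that switches the kinases off again. Injury and inflammation induce these genes in vessel walls, and so does warm enzymatic digestion of a tissue into single cells, which both libraries underwent.

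Promoter sequences were taken from RefSeq (GRCm38.p6) for 8 of the 10 genes. Those of Egr1 and Ier2 are not given. Each window covers the 250 bases before 1 RefSeq start of the gene, read 5′ to 3′ on the gene's strand. The annotated genes of Atf3, Nr4a1 and Dusp1 reach further upstream than their windows, and other starts of these genes were not searched. The windows were searched on both strands for TGACG, the half-site of the cAMP response element bound by CREB and ATF factors, and 6 of 8 members' windows held it against 17.8% of all 32851 promoter windows of that length. The full element TGACGTCA, which contains the half-site, was in 1 of 8 members' windows, that of Dusp1, against 1.55% of all windows. The AP-1 site TGANTCA was in 0 of 8 against 6.75%, and the CArG box, bound by SRF, in 0 of 8 against 1.47%. A match describes the letters and does not show that a factor binds there. The 0 of 8 lies near the shares of all windows. It covers exact letters in these 250 bases only, and sites further upstream were not searched. Shown first are Fos, Fosb and Jun, whose levels differed in opposite directions between cell classes, with half-sites in capitals, written CGTCA where they lie on the other strand. The Fos window (chr12:85473640-85473889, plus strand) holds half-sites starting 129 and 66 bases before the start, the Fosb window (chr7:19310046-19310295, minus strand) holds 1 at 60 bases, and the Jun window (chr4:95052223-95052472, minus strand) holds 0.
Fos: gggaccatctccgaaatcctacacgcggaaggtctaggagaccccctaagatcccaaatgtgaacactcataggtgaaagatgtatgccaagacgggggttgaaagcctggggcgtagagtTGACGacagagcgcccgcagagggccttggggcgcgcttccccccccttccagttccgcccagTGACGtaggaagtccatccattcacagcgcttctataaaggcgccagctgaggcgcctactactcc
Fosb: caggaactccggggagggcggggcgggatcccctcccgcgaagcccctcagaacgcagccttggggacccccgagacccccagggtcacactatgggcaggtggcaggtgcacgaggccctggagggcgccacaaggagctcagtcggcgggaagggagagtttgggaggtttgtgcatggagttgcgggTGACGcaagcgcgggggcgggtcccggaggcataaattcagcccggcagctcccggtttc
Jun: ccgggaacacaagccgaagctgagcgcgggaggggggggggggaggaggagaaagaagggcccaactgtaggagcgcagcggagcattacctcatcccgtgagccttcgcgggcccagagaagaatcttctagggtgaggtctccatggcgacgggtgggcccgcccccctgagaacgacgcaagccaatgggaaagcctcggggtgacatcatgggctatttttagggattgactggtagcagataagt

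Atf3, Nr4a1 and Dusp1 are shown because Atf3 was lower at 4 weeks in every class compared, Nr4a1 in 7 of 8, and because Dusp1 has the full element. The Atf3 window (chr1:191183334-191183583, minus strand) holds 1 half-site at 7 bases before the start. That half-site lies in the last 7 bases of the window, which overlap an annotated exon. The Nr4a1 window (chr15:101266596-101266845, plus strand) holds 4 half-sites, at 233, 213, 69 and 40 bases. The Dusp1 window (chr17:26508520-26508722, minus strand) holds half-sites at 191, 143 and 140 bases, the last pair forming the full element. Its last 47 bases, which overlap an annotated exon, are not printed.
Atf3: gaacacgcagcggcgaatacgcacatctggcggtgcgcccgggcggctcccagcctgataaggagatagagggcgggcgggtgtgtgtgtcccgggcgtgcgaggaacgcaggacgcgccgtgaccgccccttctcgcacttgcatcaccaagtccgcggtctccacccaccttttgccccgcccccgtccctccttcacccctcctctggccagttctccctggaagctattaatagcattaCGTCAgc
Nr4a1: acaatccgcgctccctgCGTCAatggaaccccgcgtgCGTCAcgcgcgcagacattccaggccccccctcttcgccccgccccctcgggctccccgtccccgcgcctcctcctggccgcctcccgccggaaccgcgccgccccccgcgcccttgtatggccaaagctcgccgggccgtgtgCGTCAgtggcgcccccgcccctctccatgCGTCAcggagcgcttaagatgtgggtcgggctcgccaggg
Dusp1: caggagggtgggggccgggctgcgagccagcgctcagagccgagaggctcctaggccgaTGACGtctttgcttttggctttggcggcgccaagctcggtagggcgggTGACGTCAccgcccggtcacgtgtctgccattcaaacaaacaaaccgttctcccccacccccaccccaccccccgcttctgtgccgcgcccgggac

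The 2-week library held 5864 barcodes and 78773018 UMIs (unique molecular identifiers, each a counted transcript), and the 4-week library held 8565 barcodes and 83753250 UMIs. The libraries shared 8 barcodes. After removal of shallow, mitochondrial-rich and doublet-scored barcodes, there were 5152 and 7422 cells left. They formed 26 clusters, and 24 of them could be given the names of 12 cell classes, each called "-like" because the names rest on markers alone. All of a class's own markers had UMIs in it, except that parathyroid cell-like cells showed 4 of 5. The composition differed between the libraries: macrophage-like cells made up 21.8% and 3.69% of the cells at 2 and 4 weeks, fibroblast-like cells 20.9% and 41.0%, thymocyte-like cells 31.0% and 11.3%, and B cell-like cells 0.835% and 19.5%. Thymocyte-like and parathyroid cell-like cells are not part of an artery and mark neighbouring tissue in the samples. The genes described here, their related immediate early genes and heat shock genes were kept out of clustering, so that the classes do not rest on them.

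UMIs were summed over the cells of a class in each library and scaled by the class total to counts-per-million (CPM). Each interval given has a level of 95% and reflects counting error alone, and PCR-copied reads had been collapsed to UMIs before deposit. With 1 library per time, no test between the times was possible, and a difference between the libraries cannot be told apart from a difference between 2 pools of animals or 2 preparations. Levels are compared between classes for the same gene, not between genes.

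Fos, the AP-1 subunit that pairs with Jun proteins, was at its highest in fibroblast-like cells, with 2952 CPM at 2 weeks and 2549 CPM at 4 weeks. At 2 weeks the order went on with macrophage-like cells at 2917 CPM, whose counting interval overlapped that of fibroblast-like cells, then smooth muscle cell-like cells at 2577, endothelial cell-like cells at 1950, dendritic cell-like cells at 1574 and parathyroid cell-like cells at 1510 CPM, the last 2 overlapping. Neutrophil-like, T cell-like and B cell-like cells followed at 744, 639 and 623 CPM with overlapping intervals, and NK cell-like and thymocyte-like cells were lowest at 288 and 226 CPM. At 4 weeks thymocyte-like cells, at 354 CPM, stood above NK cell-like cells at 314 and B cell-like cells at 213 CPM, so that the lower end of the order had changed.

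Fosb, a Fos relative with a similar partner range, had the same classes at its upper end: 1309 CPM in fibroblast-like, 1182 in smooth muscle cell-like, 966 in endothelial cell-like and 928 CPM in macrophage-like cells at 2 weeks, with the last pair overlapping. Its lowest 2-week level was 149 CPM, in thymocyte-like cells. Jun, the partner that AP-1 pairs are built on, was highest in fibroblast-like and endothelial cell-like cells, at 2355 and 2292 CPM with overlapping intervals at 2 weeks, and lowest in NK cell-like and thymocyte-like cells, at 154 and 136 CPM. Junb, a Jun relative that is prominent in activated blood cells, had another order. At 2 weeks it was highest in neutrophil-like, T cell-like and macrophage-like cells, at 2358, 2202 and 2184 CPM with neighbouring intervals overlapping, while smooth muscle cell-like cells stood at 775 CPM, above only thymocyte-like cells at 495 CPM.

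Egr1, a zinc finger factor induced by growth factors and stretch, was highest in fibroblast-like cells at both times, at 2362 and 1465 CPM. Macrophage-like, smooth muscle cell-like and endothelial cell-like cells followed at 2 weeks with 1370, 1309 and 1301 CPM, and thymocyte-like cells were lowest at 49.3 CPM. Atf3, a stress-induced factor of the ATF/CREB family, was highest in macrophage-like cells at 2 weeks with 1058 CPM. Fibroblast-like, neutrophil-like, endothelial cell-like and dendritic cell-like cells lay between 837 and 721 CPM with neighbouring intervals overlapping, and the lymphoid classes lay at or below 93.9 CPM. Nr4a1, an orphan nuclear receptor that antigen receptor signals induce in lymphocytes, placed fibroblast-like cells near its lower end at 2 weeks only. They then held 75.6 CPM, against 351 CPM in neutrophil-like, 257 in B cell-like and 233 CPM in T cell-like cells, whose neighbouring intervals overlapped. At 4 weeks fibroblast-like cells, at 44.7 CPM, stood above T cell-like cells at 34.6 and B cell-like cells at 23.1 CPM. Neutrophil-like cells were then at 41.1 CPM, with an interval overlapping that of fibroblast-like cells.

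Ier2, a small nuclear regulator, ranged at 2 weeks from 666 CPM in fibroblast-like cells to 128 CPM in thymocyte-like cells, with fibroblast-like, endothelial cell-like, macrophage-like and neutrophil-like cells overlapping as neighbours. Ier3, an inhibitor of cell death in stressed cells, spread much more widely, with 1870 CPM in neutrophil-like, 1014 in macrophage-like and 856 CPM in endothelial cell-like cells at 2 weeks and 16.5 CPM in thymocyte-like cells. Dusp1, the phosphatase that inactivates p38 and JNK, was likewise highest in myeloid cells, at 3222 CPM in neutrophil-like and 2717 CPM in macrophage-like cells at 2 weeks, and stayed highest there at 4 weeks, at 1926 and 1491 CPM. Thymocyte-like cells held 98.4 CPM of Dusp1 at 2 weeks.

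**Figure D1:**
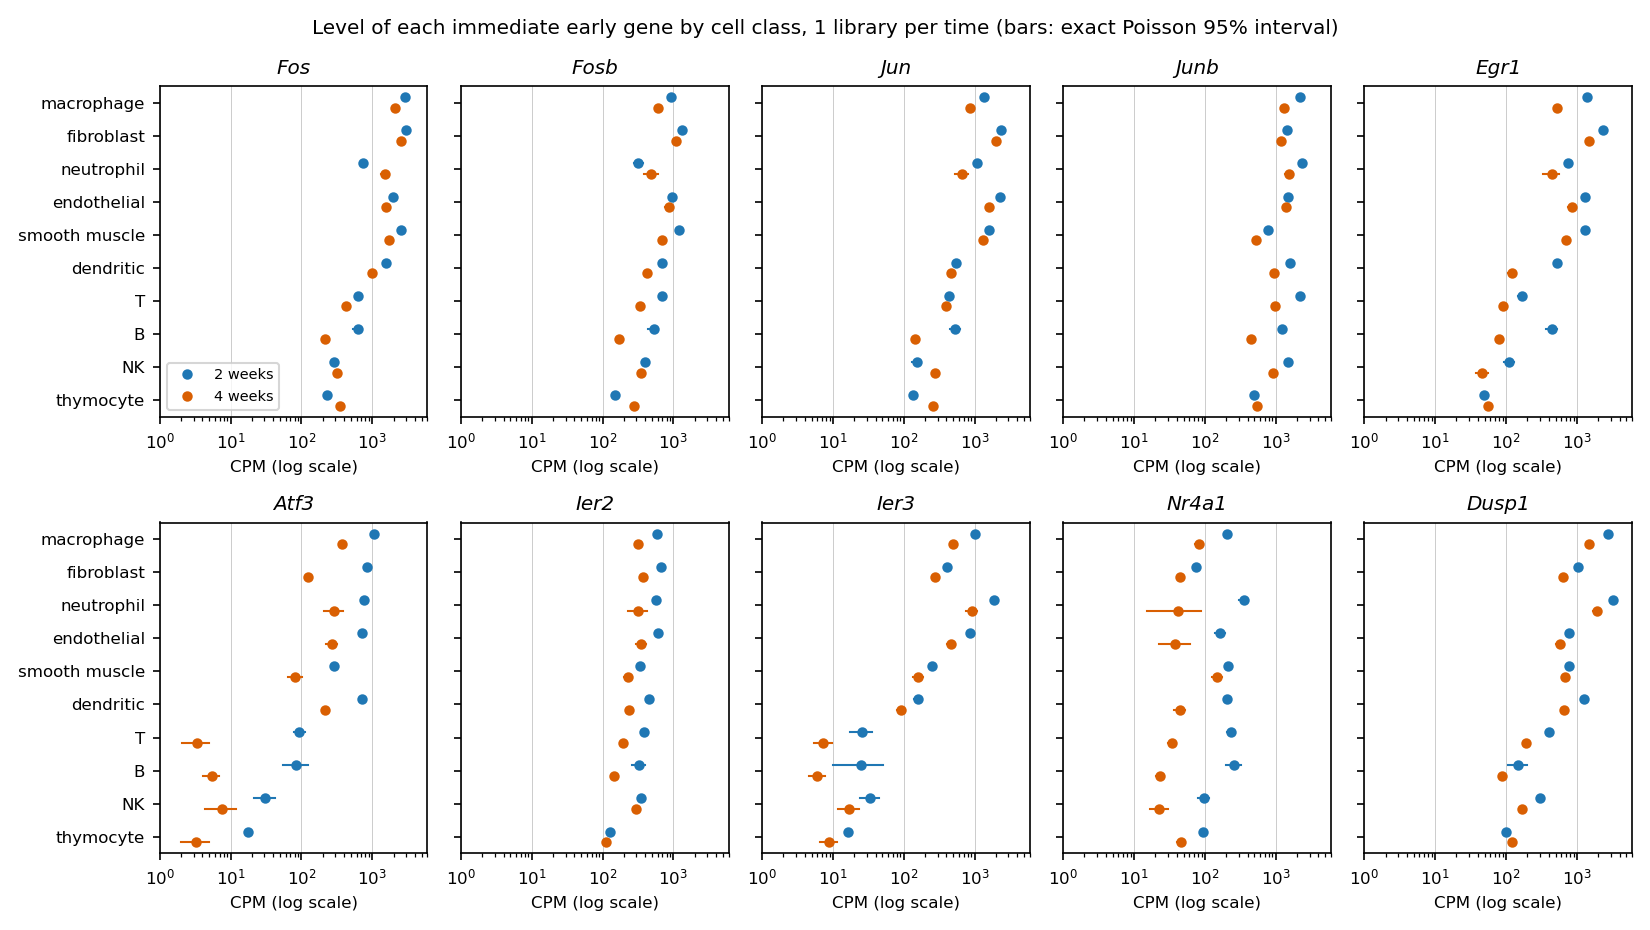
Level of each of the 10 genes (CPM of the class, log scale) in the 10 cell classes with at least 20 cells in both libraries, 2 weeks in blue and 4 weeks in orange; bars are exact Poisson 95% intervals from 1 library each. Most orange points lie left of the blue ones, and Fos, Fosb and Jun lie right of them in the thymocyte row.

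Summed over the 10 genes, macrophage-like cells held 14351 CPM at 2 weeks and 8197 CPM at 4 weeks, and fibroblast-like cells held 13415 and 9774 CPM. Endothelial cell-like cells held 11127 and 7986 CPM, smooth muscle cell-like cells 9296 and 6262 CPM and dendritic cell-like cells 7754 and 4184 CPM. The sum was thus lower at 4 weeks in all 5 of these classes. T cell-like and NK cell-like cells went from 5281 to 2654 CPM and from 3281 to 2420 CPM. Thymocyte-like cells were the exception among the 8 classes compared, with 1409 CPM at 2 weeks and 1798 CPM at 4 weeks.

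The 2 times were compared in 8 classes, those in which both libraries had 50 cells or more. A gene was called higher or lower when its CPM differed by at least 1.5-fold and it had at least 20 UMIs in the class, a rule of size and not a test, and log2 ratios are 4 weeks over 2 weeks. All 10 members had at least 20 UMIs in each of the 8 classes. Atf3 was called lower in 8 of 8 classes, Egr1, Ier3 and Nr4a1 in 7 of 8, Ier2 and Dusp1 in 5 of 8, Fosb and Junb in 4 of 8, and Fos and Jun in 1 of 8. Jun was called higher in 2 of 8 classes, and Fos and Fosb in 1 of 8.

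**Figure D2:**
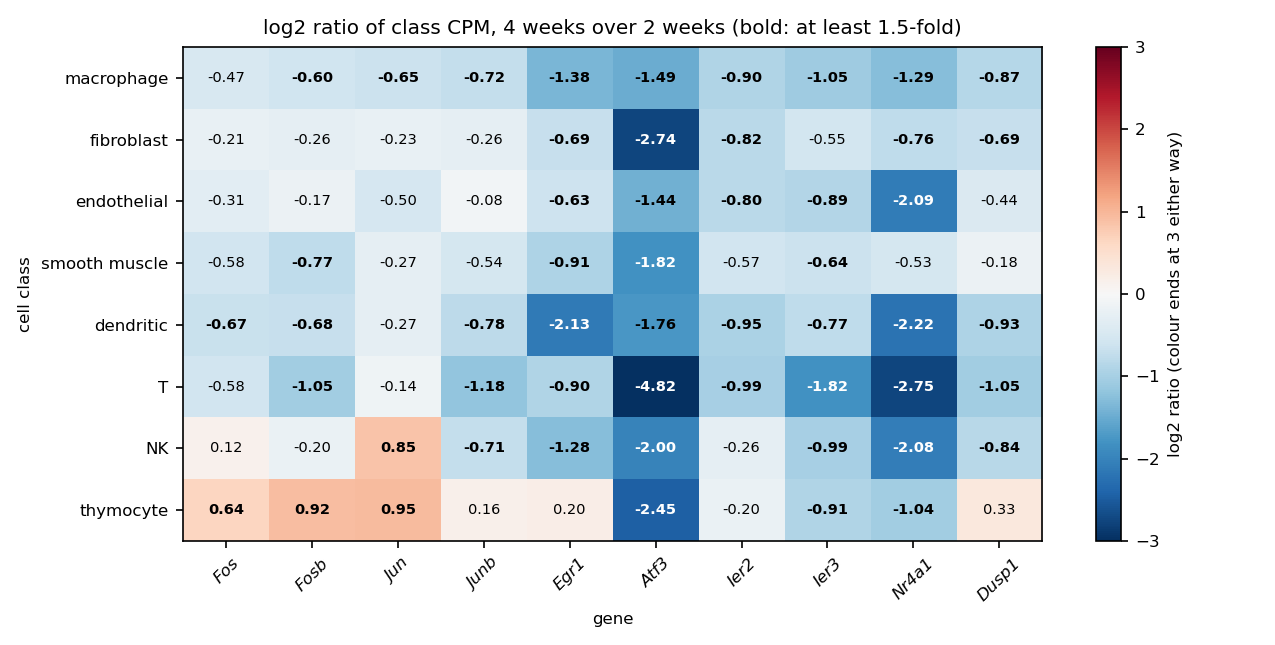
Log2 ratio of class CPM at 4 weeks over 2 weeks for the 10 genes (columns) in 8 cell classes (rows), bold where at least 1.5-fold; 1 library per time, no test. The Atf3 column is negative in every row, and the positive bold cells are Fos, Fosb and Jun in the thymocyte row and Jun in the NK row.

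In fibroblast-like cells 5 of the 10 members were called lower and 0 higher, where 11.9% of all 13807 genes compared were lower and 5.22% higher. Atf3 stood at 837 CPM at 2 weeks and 125 CPM at 4 weeks, a log2 ratio of -2.74 (-2.79 to -2.70). Its 2 libraries were further apart than those of any other member in this class. Ier2, Nr4a1, Egr1 and Dusp1 had ratios of -0.82, -0.76, -0.69 and -0.69, and Fos, Fosb, Jun and Junb lay between -0.26 and -0.21, short of the 1.5-fold size. The class was made of different clusters at the 2 times, with cluster 6 holding 484 of 1076 cells and then 84 of 3043, and cluster 0 holding 211 and then 1273. Within the 5 clusters Fos lay between -0.70 in cluster 5 and -0.33 in cluster 3, and in cluster 11 Fosb stood at -0.70 and Jun at -0.65. In cells thinned to 2600 UMIs each, 63.3% (60.3 to 66.2) held an Atf3 UMI at 2 weeks and 19.2% (17.8 to 20.7) at 4 weeks. In thymocyte-like cells, the class with the lowest Atf3 level among the 8 compared, the thinned shares were 6.12% and 1.31%. Before thinning, 85.6% and 42.6% of fibroblast-like cells held an Atf3 UMI, at median depths of 21536 and 12265 UMIs, against 16.2% and 1.91% of thymocyte-like cells at 4842.5 and 3067 UMIs. Atf3 was lower in each of the 5 fibroblast-like clusters, with ratios from -2.95 in cluster 11, led by Apod and Myoc, to -1.93 in cluster 6, led by Cxcl5 and Cthrc1.

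In macrophage-like cells 9 of the 10 members were called lower, against 10.8% of the 11350 genes compared, and 0 were called higher, against 8.92%. Atf3 stood at 1058 CPM at 2 weeks and 377 CPM at 4 weeks (log2 ratio -1.49, -1.58 to -1.40), and Egr1 at 1370 and 527 CPM (-1.38, -1.46 to -1.30). Both factors were lower in the 4-week library by more than the counting intervals. Nr4a1 and Ier3 followed at -1.29 and -1.05, and Dusp1, with 2717 and 1491 CPM, at -0.87. Fos, at -0.47, was the member short of 1.5-fold. The 2 macrophage-like clusters differed in level: cluster 4, led by Folr2, Ccl8 and Cd163, held 18818 CPM of the summed members at 2 weeks and 11257 at 4 weeks, and cluster 8, led by Arg1, Saa3 and Mmp12, held 8013 and 5472 CPM. When each library was clustered on its own, the macrophage-like class had 3 members called lower, and Jun and Fosb stood at 0.01 and 0.16.

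In dendritic cell-like cells 9 of the 10 members were called lower, against 12.4% of the 9618 genes compared, and 0 higher, against 10.9%. Nr4a1 stood at 206 and 44.3 CPM (-2.22, -2.52 to -1.93) and Egr1 at 527 and 120 CPM (-2.13, -2.31 to -1.95). Jun, at 553 and 460 CPM, was the member that was not called. This count changed under other filters, after which all cells were clustered and named again. Without removal of doublets, or with at most 5% mitochondrial UMIs per cell, 2 members were called lower. Egr1 then stood at -0.49 and -0.48, Atf3 at -0.37 in both, and Ier3 at 0.55 and 0.56. Of the cells shared with the main setting, 91.6% and 87.2% kept their class name. The part of the filter was not tested apart from the new naming. Macrophage markers summed to 15.2% of the macrophage-like level in this class at 2 weeks and 11.3% at 4 weeks, with all 8 present at both times, and their part in the result was not tested.

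In smooth muscle cell-like cells 4 of the 10 members were called lower, against 8.73% of the 10129 genes compared, and 0 higher, against 9.65%. Those 4 were Atf3 (287 and 81.0 CPM, -1.82, -2.17 to -1.50), Egr1 (-0.91), Fosb (-0.77) and Ier3 (-0.64), while Fos at -0.58, Ier2 at -0.57, Junb at -0.54 and Nr4a1 at -0.53 lay just short of 1.5-fold. With cells weighted equally or thinned, 8 members passed it. In endothelial cell-like cells, with 76 and 54 cells, 5 of the 10 members were called lower, against 16.9% of the 7612 genes compared, and 0 higher, against 13.6%. Nr4a1 stood at 163 and 38.4 CPM (-2.09, -2.90 to -1.36) and Atf3 at 728 and 269 CPM (-1.44, -1.73 to -1.15). Junb, at 1478 and 1395 CPM, differed by less than its counting intervals.

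In T cell-like cells 8 of the 10 members were called lower, against 28.4% of the 10032 genes compared, and 0 higher, against 9.38%. All genes in this class were shifted, with a median log2 ratio of -0.27. With that median set to 0, 16.3% of genes were lower and 16.4% higher, and 8 members were lower. Atf3 stood at 93.9 and 3.32 CPM (-4.82, -5.54 to -4.16), Nr4a1 at 233 and 34.6 CPM (log2 ratio -2.75) and Junb at 2202 and 969 CPM (-1.18, -1.25 to -1.12). At 2 weeks 1 cell held 25.6% of the Atf3 UMIs, and 1 cell held 33.6% of the Egr1 UMIs. Without the highest cell, the Egr1 ratio went from -0.90 to -0.36.

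The T cell-like class was made of different clusters at the 2 times. At 2 weeks cluster 19, led by Tox, Cd5 and Lef1, held 125 of its 247 cells and cluster 20, led by Il17a and Il23r, held 79. At 4 weeks cluster 9, which included Foxp3 and Cd40lg among its leading genes, held 478 of 974 cells and cluster 13, led by Dapl1, held 348. Within cluster 19 the summed members were higher at 4 weeks, at 4650 and 5601 CPM (0.27, 0.17 to 0.37), and within cluster 20 they were lower, at 7246 and 6251 CPM (-0.21, -0.28 to -0.15). Fos was called higher in cluster 19, although it was not called in the class. By the naming rule cluster 19 showed 85.7% of the T cell markers and 25% of the thymocyte markers. Whether its cells came from the thymus was not tested. With the 3 clusters that had at least 20 cells at both times weighted equally, 3 members were called lower in place of 8, and Fosb stood at 0.05 in place of -1.05. Within these clusters Atf3 was low at 4 weeks in every case: 191 and 17.0 CPM in cluster 20, 23.9 and 1.72 CPM in cluster 9 (5 UMIs at each time), and 38.0 CPM (20 UMIs) against 0 UMIs in cluster 19, which allows up to 17.2 CPM.

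In NK cell-like cells 6 of the 10 members were called lower, against 22.9% of the 8428 genes compared, and 1 higher, against 7.75%. Here too all genes were shifted, with a median of -0.22. Set to a median of 0, 12.9% of genes were lower and 14.2% higher, with 5 members lower and 1 higher. Nr4a1 stood at 95.7 and 22.6 CPM (-2.08, -2.58 to -1.59), Atf3 at 30.3 and 7.55 CPM (-2.00, -2.92 to -1.14) and Egr1 at 111 and 45.7 CPM (-1.28, -1.67 to -0.90). Jun went the other way, with 154 CPM at 2 weeks and 278 CPM at 4 weeks (0.85, 0.61 to 1.09). Its counting intervals, 133 to 177 and 256 to 300.2 CPM, did not overlap. With each cell thinned to 2600 UMIs the Jun ratio was 0.84 (0.41 to 1.28), and 3 of 9 members with enough UMIs were called lower. Fos and Fosb, at 0.12 and -0.20, were not called.

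In thymocyte-like cells 3 of the 10 members were called lower, against 5.61% of the 11636 genes compared, and 3 higher, against 7.8%. Fos stood at 226 CPM (220 to 234) at 2 weeks and 354 CPM (339 to 369) at 4 weeks, a log2 ratio of 0.64 (0.57 to 0.72). Fosb stood at 149 and 282 CPM (0.92, 0.83 to 1.01) and Jun at 136 and 262 CPM (0.95, 0.86 to 1.04). Fos, Fosb and Jun were thus higher in the 4-week library, while the AP-1 gene Junb was not called. Atf3, Nr4a1 and Ier3 were lower in the same cells, at 17.8 and 3.25 CPM (-2.45, -3.18 to -1.80), 93.0 and 45.4 CPM (-1.04, -1.22 to -0.85) and 16.5 and 8.78 CPM (-0.91, -1.36 to -0.49). Junb, Egr1 and Dusp1, at 0.16, 0.20 and 0.33, and Ier2, at -0.20, were not called.

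The higher levels of Fos, Fosb and Jun passed 1.5-fold in 1 of the 3 thymocyte-like clusters. Cluster 1, led by Rag1 and without the proliferation markers used, held 869 of the 1596 thymocyte-like cells in the 2-week library, and 577 of 839 in the 4-week library. There Fos stood at 362 and 724 CPM (1.00, 0.88 to 1.13), Fosb at 217 and 571 CPM (1.40, 1.25 to 1.55) and Jun at 276 and 596 CPM (1.11, 0.97 to 1.25). Junb stood at 0.13 there. In clusters 7 and 10, both of which carried the proliferation markers, Fos was at 0.11 and 0.36, Fosb at 0.33 and 0.56, and Jun at 0.37 and 0.55. The summed members were at 0.49 (0.44 to 0.54) in cluster 1, at -0.02 (-0.09 to 0.04) in cluster 7 and at 0.02 (-0.04 to 0.08) in cluster 10. With the 3 clusters weighted equally, Fos, Fosb and Jun stood at 0.65, 0.95 and 0.86 for the class.

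**Figure D3:**
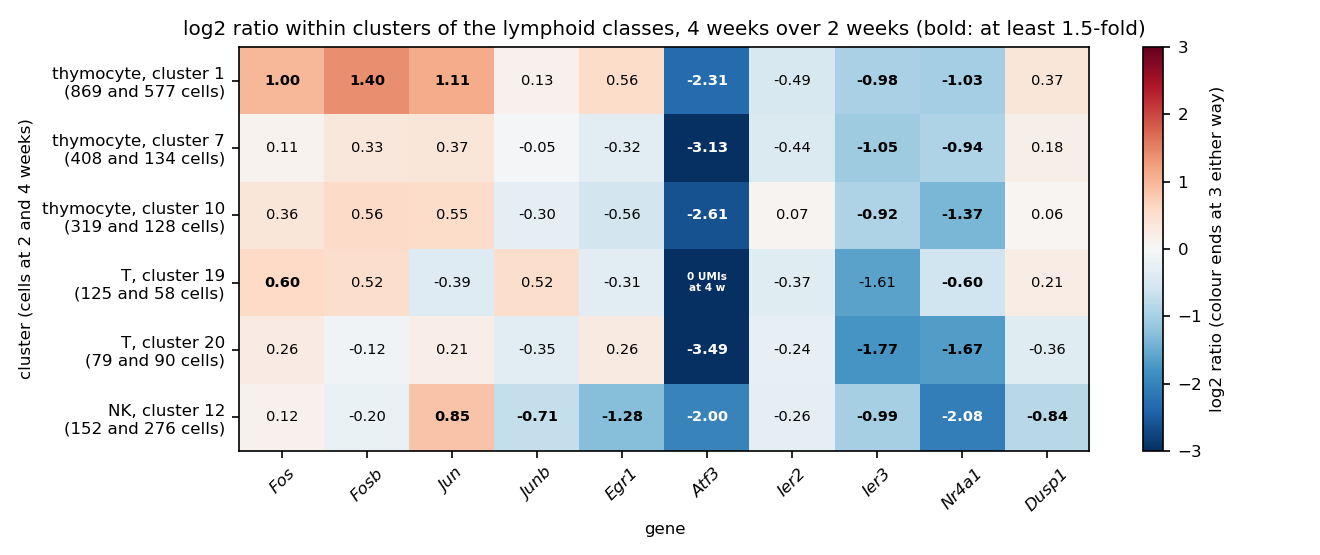
Log2 ratios (4 weeks over 2 weeks, from CPM) of the 10 genes (columns) within the lymphoid clusters with 50 cells or more in both libraries (rows, with their cells at 2 and 4 weeks), bold where at least 1.5-fold. Fos, Fosb and Jun are highest in cluster 1, at 1.00, 1.40 and 1.11, and Atf3 is the lowest value of each row except in cluster 12, where Nr4a1 is lower.

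Depth differed beside this result, with median UMIs of 4842.5 per thymocyte-like cell at 2 weeks and 3067 at 4 weeks. Across these cells the summed members per 10000 UMIs correlated with UMIs per cell at a Spearman rho of -0.44 and -0.48. That value mixes clusters of unlike depth. Cluster 1 had medians of 3147 and 2535 UMIs, against 16812 and 13328 in cluster 7 and 16003 and 14401 in cluster 10. Within them rho was -0.10 and -0.20 in cluster 1, -0.19 and -0.13 in cluster 7, and -0.41 and -0.31 in cluster 10. With each cell thinned to 2600 UMIs, which left out 272 cells at 2 weeks and 306 at 4 weeks, Fos, Fosb and Jun stood at 0.73 (0.58 to 0.87), 1.15 (0.99 to 1.31) and 0.76 (0.59 to 0.93). Of the cells left out, 262 and 295 were from cluster 1, which had 869 and 577 cells. Thinning thus also changed the mix of clusters, and the part of depth was not tested apart from it. When each library was clustered on its own, Fos stood at 0.53, short of 1.5-fold, and Fosb and Jun at 0.91 and 0.86.

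Markers of other classes were measured in the thymocyte-like cells, since RNA free in the suspension adds to every barcode. The 7 fibroblast markers summed to 0.569% of their fibroblast-like level at 2 weeks and 1.12% at 4 weeks, and 7 of 7 were present at both times. Fos stood at 7.67% and 13.9% of its fibroblast-like level in the same cells, Fosb at 11.4% and 25.8% and Jun at 5.76% and 13.0%. In cluster 1 the fibroblast markers were at 1.20% and 2.34%, with Fos at 12.2% and 28.4%. Both the marker shares and the shares of Fos, Fosb and Jun were higher at 4 weeks, with the 3 genes above the markers at both times. The part of free RNA in the difference was not tested. The 8 macrophage markers were at 0.816% and 0.276% of their macrophage-like level in thymocyte-like cells, and Atf3 at 1.68% and 0.862%. In NK cell-like cells the macrophage markers were at 0.945% and 0.171%, with Adgre1 and Fcgr1 at 0 at 4 weeks. The fibroblast markers there were at 0.657% and 1.10% and Jun at 6.53% and 13.8% of the fibroblast-like level.

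**Figure D4:**
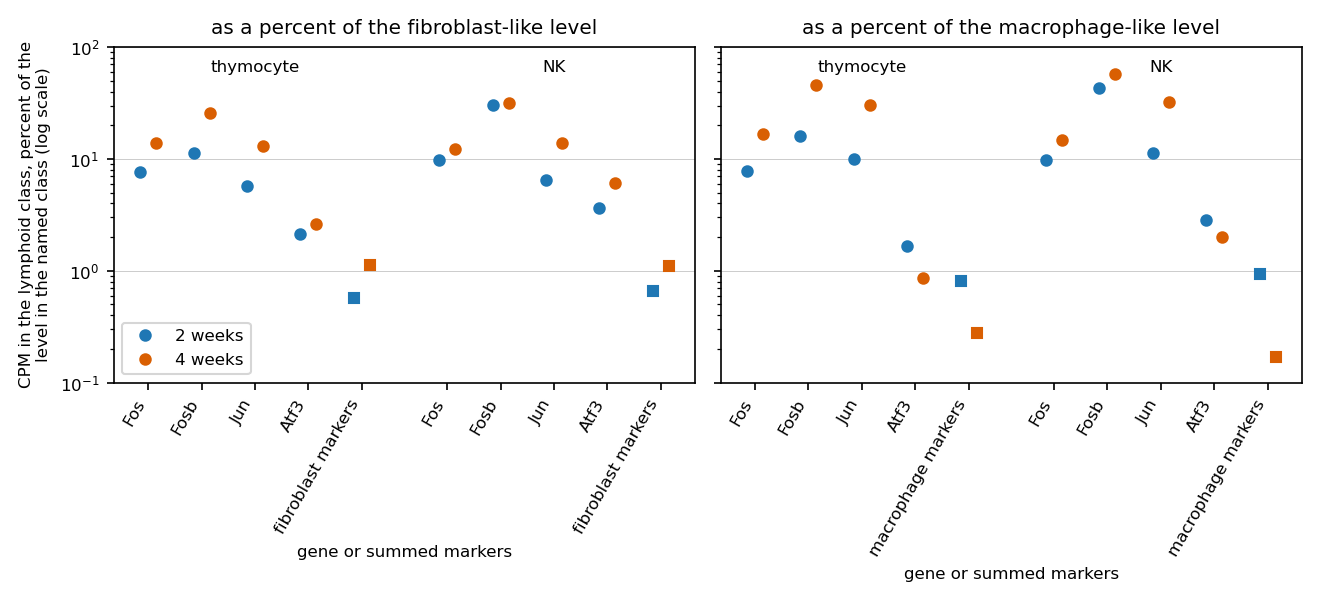
Level of Fos, Fosb, Jun and Atf3 (circles) and of summed marker genes (squares) in thymocyte-like and NK cell-like cells, as a percent of the level in fibroblast-like cells (left, fibroblast markers) or macrophage-like cells (right, macrophage markers) of the same library, log scale. Squares lie between 0.171% and 1.12%, and the circles of Fos, Fosb and Jun between 5.76% and 56.9%.

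By the rule of size, Fos, Fosb and Jun were called in opposite directions in different classes. Fos was called lower in dendritic cell-like cells (-0.67) and higher in thymocyte-like cells. By cluster, it was called higher in thymocyte-like cluster 1 and also in cluster 19, whose T cell-like name rests on markers alone. Lower calls of Fos by cluster were in fibroblast-like cluster 5 and in cluster 17, which has no class name. The dendritic cell-like class was 128 cells of cluster 16 and 24 of cluster 23 at 2 weeks, and 138 and 76 at 4 weeks. Within cluster 16 Fos stood at -0.49 and Fosb at -0.56, short of 1.5-fold, so that the lower Fos call was not seen there. Fosb was called lower in macrophage-like (-0.60), dendritic cell-like (-0.68), smooth muscle cell-like (-0.77) and T cell-like cells, and higher in thymocyte-like cells. Jun was called lower in macrophage-like cells (-0.65) and higher in NK cell-like and thymocyte-like cells. The lower calls of Jun and Fosb in macrophage-like cells were lost when the libraries were clustered apart (0.01 and 0.16), and within macrophage-like cluster 8 Jun stood at 0.02. The lower call of Fosb in T cell-like cells was lost with clusters weighted equally (0.05). No test of these differences between classes was possible with 1 library per time. The Atf3 ratio was -1.08 or lower in each of the 17 clusters with at least 50 cells in both libraries, counting cluster 19 with 0 UMIs at 4 weeks. These clusters share 2 libraries, and clusters 7 and 10 held 4 and 5 Atf3 UMIs at 4 weeks. In thymocyte-like cells Atf3 was at 1.68% and 0.862% of its macrophage-like level, beside 0.816% and 0.276% for the macrophage markers, and the part of free RNA in its difference was not tested.

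Classes with too few cells for the comparison were described by level alone. Neutrophil-like cells, 198 at 2 weeks and 26 at 4 weeks, held 744 CPM of Fos (678 to 815) and 1528 CPM (1334 to 1743), while Dusp1 stood at 3222 and 1926 CPM and Nr4a1 at 351 and 41.1 CPM. At 4 weeks 1 neutrophil-like cell held 11.2% of the Fos UMIs, and 1 cell held 50% of the 6 Nr4a1 UMIs. The class also differed between the times in its own 7 markers, which summed to 56563 and 262830 CPM. Macrophage markers in it stood at 7.55% and 1.44% of their macrophage-like level. The part of either in these levels was not tested. B cell-like cells, 43 and 1450, held 4217 CPM of the summed members at 2 weeks and 1323 CPM at 4 weeks. There, too, few cells carried the level at 2 weeks, since 1 cell held 70.8% of the Atf3 UMIs and 58.6% of the Jun UMIs. Parathyroid cell-like cells, compared at 2 weeks only, held 6052 CPM, and plasmacytoid dendritic cell-like cells, at 4 weeks only, held 1982 CPM, with 0 UMIs of Atf3.

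Over single cells, the summed members per 10000 UMIs had a median of 145 in macrophage-like cells at 2 weeks, with quartiles of 79.3 and 221, and 68.6 at 4 weeks, with quartiles of 38.5 and 119. In fibroblast-like cells the median was 126 at 2 weeks (79.9 to 178) and 88.3 at 4 weeks (59.4 to 125). The quartile ranges of the 2 libraries overlapped in each of these classes. In thymocyte-like cells the median was 15.4 (8.74 to 29.1) at 2 weeks and 22.0 (10.6 to 44.6) at 4 weeks. In fibroblast-like cells the summed members were spread over most cells: cells without any UMI of the 10 genes numbered 7 of 1076 and 10 of 3043, and the 10% of cells with the most held 25.2% and 24.3% of the summed member UMIs.

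**Figure D5:**
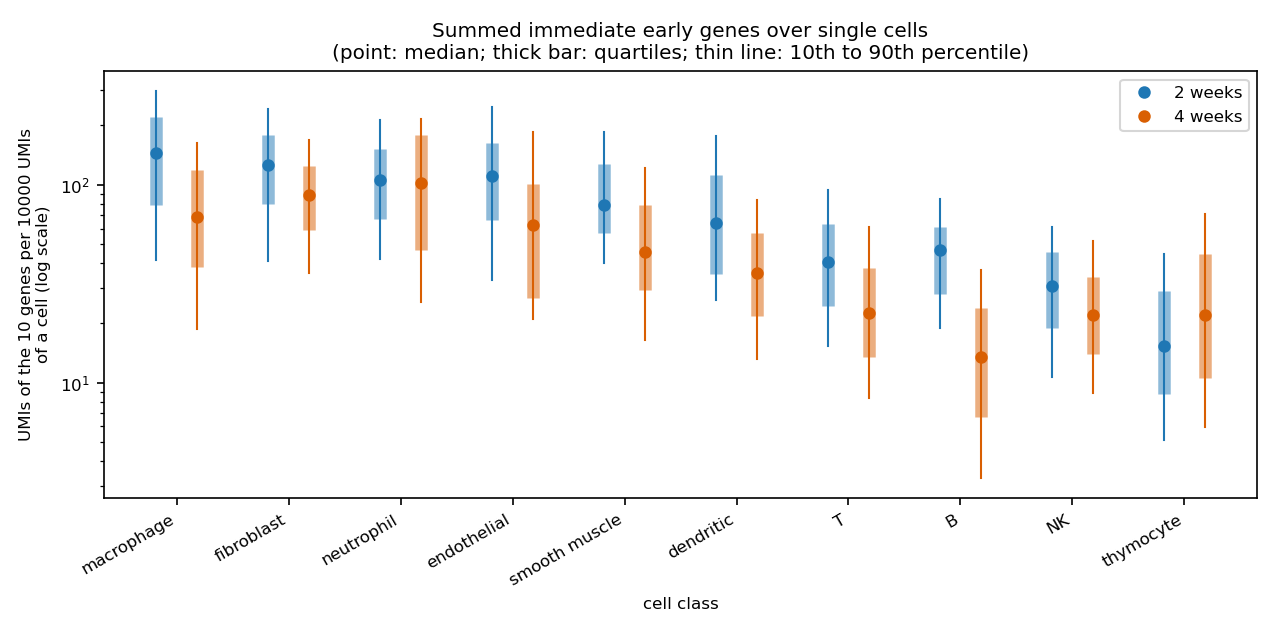
UMIs of the 10 genes per 10000 UMIs of a cell (log scale) in the 10 cell classes with at least 20 cells in both libraries, 2 weeks in blue and 4 weeks in orange; points are medians over cells, thick bars quartiles and thin lines the 10th to 90th percentiles. Medians are lower at 4 weeks in 9 classes and higher in thymocyte-like cells, 22.0 against 15.4, and the quartile ranges of the 2 times overlap in all but the B class.

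The members varied together from cell to cell in some classes. Among cells thinned to 2600 UMIs, the median of the 45 pairwise Spearman correlations was 0.37 in macrophage-like cells at 2 weeks and 0.23 at 4 weeks, and 0.23 and 0.12 in fibroblast-like cells. In thymocyte-like cells it was 0.06 at both times. Fos and Jun correlated at 0.50 and 0.41 in macrophage-like, 0.47 and 0.34 in fibroblast-like and 0.62 and 0.52 in endothelial cell-like cells. These are descriptions over cells of 1 library, which share their preparation, and weak correlations of sparse counts are not read here.

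Tissue dissociation sets a limit on all of these levels. Both libraries went through the same 40 min digestion at 37 °C according to the labels, and neither holds cells that escaped it, so transcripts made in the vessel and transcripts made during digestion and sorting cannot be told apart, nor can a difference in handling between the 2 preparations. Values that move with handling were measured beside the members. Barcodes removed for over 10% mitochondrial UMIs held more member UMIs than kept cells when CPM was taken over non-mitochondrial UMIs. The levels were 12823 against 9974 CPM at 2 weeks and 8305 against 6682 CPM at 4 weeks. Over all UMIs they were nearer, at 10544 against 9726 CPM and 6787 against 6511 CPM. Both pool all classes, whose levels differ widely, and the mix of classes among the removed barcodes was not determined. The medians of mitochondrial UMIs in kept cells were 2.37% and 2.58%. Across fibroblast-like cells, the summed members correlated with heat shock gene levels at a Spearman rho of 0.44 at 2 weeks and 0.17 at 4 weeks, and with the mitochondrial share at -0.31 and -0.16. Other classes differed. With heat shock genes rho was 0.11 and -0.07 in macrophage-like and -0.27 and -0.16 in thymocyte-like cells. With the mitochondrial share it was 0.12 and 0.24 in thymocyte-like cells. Within the thymocyte-like class the sign differed between clusters. With heat shock genes rho was 0.15 and 0.24 in cluster 1, -0.11 and -0.13 in cluster 7, and -0.24 and -0.14 in cluster 10. With the mitochondrial share it was 0.06 and 0.13, -0.04 and -0.08, and 0.24 and 0.27 in these clusters. The part of digestion in the difference between the libraries was not tested.

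Heat shock and chaperone genes, which warm digestion and protein stress induce, had medians nearer to 0 than the members in each of the 8 classes. In fibroblast-like cells 2 of 15 were called lower and 1 higher, beside 11.9% and 5.22% of all genes compared. The median log2 ratio of the 15 was -0.06 against -0.62 for the members and -0.00 for all genes compared. The endoplasmic reticulum chaperone gene Hspa5 (1713 and 869 CPM, -0.98) and Dnajb1 (150 and 75.5 CPM, -0.99) were lower, and Hspa1b (20.1 and 38.1 CPM, 0.92) was higher. In macrophage-like cells 2 of 15 were lower and 2 higher, beside 10.8% and 8.92% of all genes compared, with a median of 0.24 against -0.88 for the members. In thymocyte-like and smooth muscle cell-like cells 0 of 15 were called in either direction. Hspa5 was called lower in dendritic cell-like, endothelial cell-like, T cell-like and NK cell-like cells as well, at -1.06, -0.69, -1.23 and -1.06. The 10 housekeeping genes had medians between -0.16 in NK cell-like and 0.12 in endothelial cell-like cells.

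Other immediate early genes had medians below 0 in the same 7 of 8 classes as the members. Of 44 listed, 43 were in the tables. In fibroblast-like cells 27 of 43 were called lower and 1 higher, with a median of -0.67, and in macrophage-like cells 23 of 41 with enough UMIs were lower and 1 higher, with a median of -0.70. The largest calls in fibroblast-like cells were Csrnp1 (55.8 and 9.80 CPM, -2.51), Arc (-1.88), Tnfaip3, an inhibitor of NF-kB signalling (58.9 and 17.5 CPM, -1.75), and Gadd45b (196.8 and 60.7 CPM, -1.70). In macrophage-like cells they were Tnfaip3 (414.8 and 126 CPM, -1.72), Fosl1 (-1.70), Myc (3.45 and 9.76 CPM) and Csrnp1 (-1.44). Counts in the other classes were 25 lower and 4 higher of 41 in T cell-like, 20 and 1 of 39 in dendritic cell-like, 19 and 4 of 36 in NK cell-like, 18 and 0 of 38 in endothelial cell-like and 13 and 2 of 39 in smooth muscle cell-like cells. The shares of all genes called in each class are those given with the members above. Thymocyte-like cells again differed, with 8 lower and 9 higher of 41 and a median of 0.08. There the largest calls were Arc (1.18), Per1 (-1.17), Fosl2 (-1.16) and Klf2 (24.3 and 54.3 CPM, 1.16), a factor that marks lymphocytes ready to leave the thymus. Nr4a1's relatives Nr4a2 and Nr4a3 were among the largest calls in dendritic cell-like cells, at -2.04 and -1.92, beside Arc, at 2.69, and Csrnp1, at -1.70.

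Genes upstream of the members differed less. Of the 17 kinases and factors listed, among them the ERK, JNK and p38 kinase genes, Srf and its partners and Creb1, 0 were called lower and 1 higher in fibroblast-like cells (Mef2c, 14.8 and 23.1 CPM, 0.64), and 2 were lower in macrophage-like cells (Elk1 at -0.95 and Srf, 25.7 and 16.6 CPM, at -0.63). In smooth muscle cell-like cells 0 were called in either direction, and in thymocyte-like cells 2 were higher, Elk3 (17.4 and 28.5 CPM, 0.71) and Mef2c (0.63). In T cell-like and NK cell-like cells 7 and 6 of 17 were lower, among them Mef2d at -1.20 and -0.93, in classes where all genes were shifted. There 28.4% and 22.9% of all genes compared were lower.

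Across the 19 combinations of class and library with at least 50 cells, the 5 genes outside these lists whose levels were most like the summed members were Samd4b (Pearson r 0.92), Cpd (0.92), Mmp14 (0.92), Tcn2 (0.92) and Itpripl2 (0.90), among 6555 genes with a mean of at least 20 CPM. Of the members themselves, Egr1 (0.94), Ier3 (0.93) and Atf3 (0.91) followed the sum most closely and Nr4a1 least (0.58), where each member is itself part of the sum. These correlations describe units that share 2 libraries.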

How the data were processed

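Gene expression was measured in 1 library per time. The values are UMI counts per gene and cell, deposited by the authors as filtered matrices and, per the file headers, produced by Cell Ranger 4.0.0; the genome build is mm10, per the submitters' processing notes. Barcodes were dropped below 300 genes or 500 UMIs, or above 10% mitochondrial UMIs. Doublets were removed with a scorer written after Scrublet's scheme (2 simulated doublets per cell), used in place of Scrublet itself so that results repeat exactly. Cells were clustered with leidenalg 0.10.2 and scanpy 1.11.5 (2000 variable genes, 30 components, 15 neighbours, resolution 1) without immediate early and heat shock genes. Clusters were named from marker lists. The naming rule was adjusted after cluster tables had been seen: related classes were not counted as rivals, haemoglobin genes were ignored, and markers had to be present in each library.

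Counts were summed per class and library and divided by the class total (CPM). Ratios have exact conditional binomial intervals and levels exact Poisson intervals; shares of cells have exact Clopper-Pearson intervals. Intervals cover counting error only. Kept cells held 71879240 and 72594002 UMIs, with medians of 11760 and 8601.5 per cell. With 1 library per time no test was made. A gene was called when it had at least 20 UMIs and differed by at least 1.5-fold. The genes named are the 10 members, the 4 largest calls in each related list and the 5 genes most like the summed members; other genes of these lists were named after their values were seen. The members and lists were chosen with earlier results of these data known. Alternatives changed the cell filters, doublet removal, clustering, scaling, weighting, depth and thresholds. The ratio, its interval and the fold call were tested on Poisson counts simulated for fibroblast-like and NK cell-like cells. Those counts hold no variation between cells or pools, and the other steps were not tested in this way. Promoter windows came from RefSeq (GRCm38.p6); windows were shortened where over 30 bases overlapped an annotated exon.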

Additional observations from a re-analysis of the deposited data

Results flagged for a closer look

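Fos, Fosb and Jun were called in opposite directions in different cell classes. Fos had a log2 ratio of 4 weeks over 2 weeks of -0.67 in dendritic cell-like and 0.64 in thymocyte-like cells. Fosb had -1.05 in T cell-like, -0.68 in dendritic cell-like, -0.60 in macrophage-like, -0.77 in smooth muscle cell-like and 0.92 in thymocyte-like cells. Jun had -0.65 in macrophage-like, 0.85 in NK cell-like and 0.95 in thymocyte-like cells. Some of these calls did not hold: Fosb was at 0.05 in T cell-like cells with clusters weighted equally, Fosb and Jun were at 0.16 and 0.01 in macrophage-like cells with the libraries clustered apart, and Fos and Fosb were at -0.49 and -0.56 within cluster 16, the larger dendritic cell-like cluster. On the higher side, Fos in thymocyte-like cells fell short of 1.5-fold with the libraries clustered apart. Fos, Fosb and Jun passed 1.5-fold in thymocyte-like cluster 1 but not in clusters 7 and 10. Jun in NK cell-like cells could not be compared without doublet removal, with at most 5% mitochondrial UMIs or with libraries clustered apart. Without doublet removal, and with at most 5% mitochondrial UMIs, dendritic cell-like cells had 2 members called lower. The difference between classes was not tested, since each class has 1 library per time.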

How the results depend on the processing

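No paired analysis was possible because each time is 1 library. Of 250 counts of members called under alternatives, 15 moved by over 1.5 times. With a 2-fold size, members lower numbered 3 in dendritic cell-like, 4 in macrophage-like, 3 in NK cell-like, 2 in endothelial cell-like, 1 in fibroblast-like and 1 in smooth muscle cell-like cells, and members higher numbered 0 in NK cell-like and 0 in thymocyte-like cells. At that size, the lower shares of all genes compared were 4.59%, 4.56%, 7.96%, 7.37%, 5.93% and 3.64% in these 6 classes, in the same order. The higher shares were 3.04% in NK cell-like and 3.09% in thymocyte-like cells. Without doublet removal, and with at most 5% mitochondrial UMIs, dendritic cell-like cells had 2 lower in each case, and their Ier3 ratio was 0.55 and 0.56. When the libraries were clustered apart, macrophage-like cells had 3 lower, with Fosb at 0.16 and Jun at 0.00659. With clusters weighted equally, T cell-like cells had 3 lower, with Fosb at 0.0504. Thinned to 2600 UMIs, NK cell-like cells had 3 lower and smooth muscle cell-like cells 8, and with cells weighted equally smooth muscle cell-like cells had 8. The 2-fold counts are smaller by construction, and for the others the cause was not tested. NK cell-like cells could not be compared without doublet removal, with at most 5% mitochondrial UMIs or with libraries clustered apart (0 and 268 cells), because no cluster carried that name in both libraries. Clustering with seeds 2 and 3, chosen after seeing the data, moved none of these counts by over 1.5 times, and 97.3% and 97.2% of cells kept their class name. Depth limits Atf3 in thymocyte-like and NK cell-like cells, which held 20 and 17 UMIs of it at 4 weeks.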
